A study of Homo sapiens with 6 samples.

Results

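Cells make cholesterol and fatty acids from the same precursor, cytosolic acetyl-CoA. In the sterol branch a chain of enzymes builds mevalonate, isoprenoid units, squalene and finally cholesterol. In the fatty acid branch acetyl-CoA is carboxylated, built into palmitate and then elongated and desaturated. Transcription of both branches is driven by the SREBP factors. These are held in the endoplasmic reticulum by SCAP and INSIG proteins when sterols are plentiful, and are released to the nucleus after cleavage when sterols run low. SREBP2, from SREBF2, is best known for sterol genes and SREBP1, from SREBF1, for fatty acid genes. Dividing lymphoid cells draw on both branches for new membrane.

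The genes described here are 31 genes of cholesterol and fatty acid synthesis, chosen by symbol from a fixed list. The list was chosen with earlier results of these data known. Each listed symbol was matched to an Ensembl gene of GENCODE release 29 with the version number removed. All 31 were found among the 18278 genes of the deposited table. They comprise 18 enzymes of the sterol branch, 8 enzymes of the fatty acid branch, and 5 genes of regulation and sterol transport. RNA was measured in Toledo, an established human line from a diffuse large B cell lymphoma that is grown in suspension. The treated group was 3 samples kept for 6 days with TP-064 at 5 uM. TP-064 is a small-molecule inhibitor of CARM1, an enzyme that methylates arginines of histones and of coactivators. The control group was 3 samples of the same line kept for 6 days with the solvent DMSO. The labels name no genetic change for either group, and the series concerns lymphomas in which CREBBP or EP300, genes of acetyltransferases, are mutated. The data come from 1 line, 1 dose and 1 time. The labels do not say whether replicates were separate cultures, so p-values rest on a spread among samples that may be technical only.

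The recovered reads per library ranged from 41354131 to 48360867 with TP-064 and from 43044383 to 47051434 with DMSO. All 6 B cell markers checked were in the table, with a summed level of 94700 to 102000 normalized read counts with TP-064 and 99100 to 101000 with DMSO. Single B cell markers differed in both directions: CD22 had 280 to 334 with TP-064 and 1630 to 1840 with DMSO, CD79A and CD79B were also below all controls, and MS4A1 had 18300 to 20500 with TP-064 and 9850 to 10900 with DMSO, with PAX5 also above all controls. None of 5 T cell markers was listed, and the myeloid and epithelial markers that were listed summed to at most 99.5, although CSF1R had 49.5 to 75.2 with TP-064 and 6.49 to 18.9 with DMSO. TP-064 replicate 3 stood apart in reads counted for antisense genes. Over 269 of them, the median share of the overlapping partner's reads was 0.704% in that library and at most 0.115% in the others. Genes of cell division moved with the treatment too: all 10 in a list of division genes were lower, beside 33.3% of all tested genes. Their median log2 fold change was -1.74. The part of these differences in the results below was not tested.

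Promoter sequences are shown first because the genes share letters that the choice of genes did not use. RefSeq promoter windows run from 250 bases before to 50 bases after a start, on GRCh38.p14, and were at hand for 27 of the 31 genes. The letters CCAAT, on either strand, are known as the core of the site of NF-Y, a factor that works beside SREBP at sterol genes. They occurred in a window of 13 of 15 sterol enzymes (86.7%), 5 of 7 fatty acid enzymes (71.4%) and 3 of 5 regulators and carriers (60.0%). Among 10205 tested genes with a window the share was 43.3%. The letters GGGCGG, the core of the site of SP1, were in a window of 25 of 27 genes (92.6%), against 75.6% of tested genes. The letters CACGTG, an E-box, were in 5 of 27 genes (18.5%), against 12.5%. The letters TCACNCCAC, a form of the sterol regulatory element, were in the window of SREBF2 alone (3.70%), against 1.49% of tested genes. Genes with several starts count once if any window held the letters, and each motif was searched on both strands without regard to the others, so matches may overlap. The background of tested genes was not matched to the expression level of the 31 genes. Over all 27305 genes with a window, tested or not, the shares were 39.7% for CCAAT and 48.3% for GGGCGG. A match is a description of the letters and no evidence of binding.

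The stretches below are the 150 bases before the start, 5′ to 3′ on the strand of the gene, with CCAAT or its reverse complement in capitals. EBP, FDPS and MSMO1 were lower with TP-064, and TM7SF2, LSS and MVD were higher, so that the letters occur in genes of both directions. SREBF2 is shown for the sterol regulatory element letters, which are the capitals in its line.
EBP, chrX:48521658-48521807, plus strand: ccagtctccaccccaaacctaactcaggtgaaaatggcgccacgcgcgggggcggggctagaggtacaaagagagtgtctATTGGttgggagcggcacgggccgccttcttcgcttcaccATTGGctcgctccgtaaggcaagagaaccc
FDPS, chr1:155308716-155308865, plus strand: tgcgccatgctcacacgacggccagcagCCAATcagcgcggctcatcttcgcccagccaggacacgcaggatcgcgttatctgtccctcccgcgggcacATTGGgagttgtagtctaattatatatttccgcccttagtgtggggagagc
MSMO1, chr4:165327519-165327668, plus strand: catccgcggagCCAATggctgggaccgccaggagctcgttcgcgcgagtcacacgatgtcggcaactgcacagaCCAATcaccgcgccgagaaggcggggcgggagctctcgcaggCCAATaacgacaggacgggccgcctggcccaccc
TM7SF2, chr11:65111722-65111871, plus strand: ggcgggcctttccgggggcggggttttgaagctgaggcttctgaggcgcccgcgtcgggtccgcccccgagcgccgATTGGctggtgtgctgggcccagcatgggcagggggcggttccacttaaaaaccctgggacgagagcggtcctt
LSS, chr21:46228775-46228924, minus strand: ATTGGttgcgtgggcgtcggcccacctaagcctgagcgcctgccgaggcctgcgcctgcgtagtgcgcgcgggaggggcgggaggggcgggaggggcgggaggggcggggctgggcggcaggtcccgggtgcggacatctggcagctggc
MVD, chr16:88663092-88663241, minus strand: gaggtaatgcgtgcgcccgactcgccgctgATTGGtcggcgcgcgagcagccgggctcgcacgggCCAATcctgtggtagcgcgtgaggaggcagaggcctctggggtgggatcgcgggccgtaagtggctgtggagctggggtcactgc
SREBF2, chr22:41832955-41833104, plus strand: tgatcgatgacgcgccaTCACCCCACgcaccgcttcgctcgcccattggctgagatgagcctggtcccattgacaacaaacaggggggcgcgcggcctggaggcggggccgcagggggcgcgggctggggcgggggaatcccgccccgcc
The match in EBP nearest to the start begins 30 bases before it and that in MSMO1 34 bases, while the single match in LSS begins 150 bases before the start.

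With TP-064 most genes of both branches were lower, but each branch also held genes that were higher. Of 31 genes, 26 were lower, 4 were higher and 1 did not pass the test. A gene was called at a limma adjusted p under 0.05 over all 16048 tested genes, of which 65.1% were called, 33.3% lower and 31.9% higher. The 31 genes are well expressed, with means of 500 normalized read counts or more. Among the 8757 tested genes above that mean, a level chosen after the values were seen, 44.8% were lower and 34.9% higher, 79.7% in all. The share of lower calls among the 31 genes was 83.9%, above both backgrounds, and the share of higher calls was 12.9%. Their median log2 fold change was -0.53, against 0.01 over all tested genes. In bulk RNA, fewer cells that express a gene and less RNA per cell cannot be told apart. Without TP-064 replicate 3, the library with more reads at antisense genes, 25 of the 31 genes were lower and 4 higher. The samples of the groups did not overlap for 26 genes that were lower and 4 that were higher, beside 69.1% of all tested genes, 35.2% lower and 33.9% higher.

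**Figure D1:**
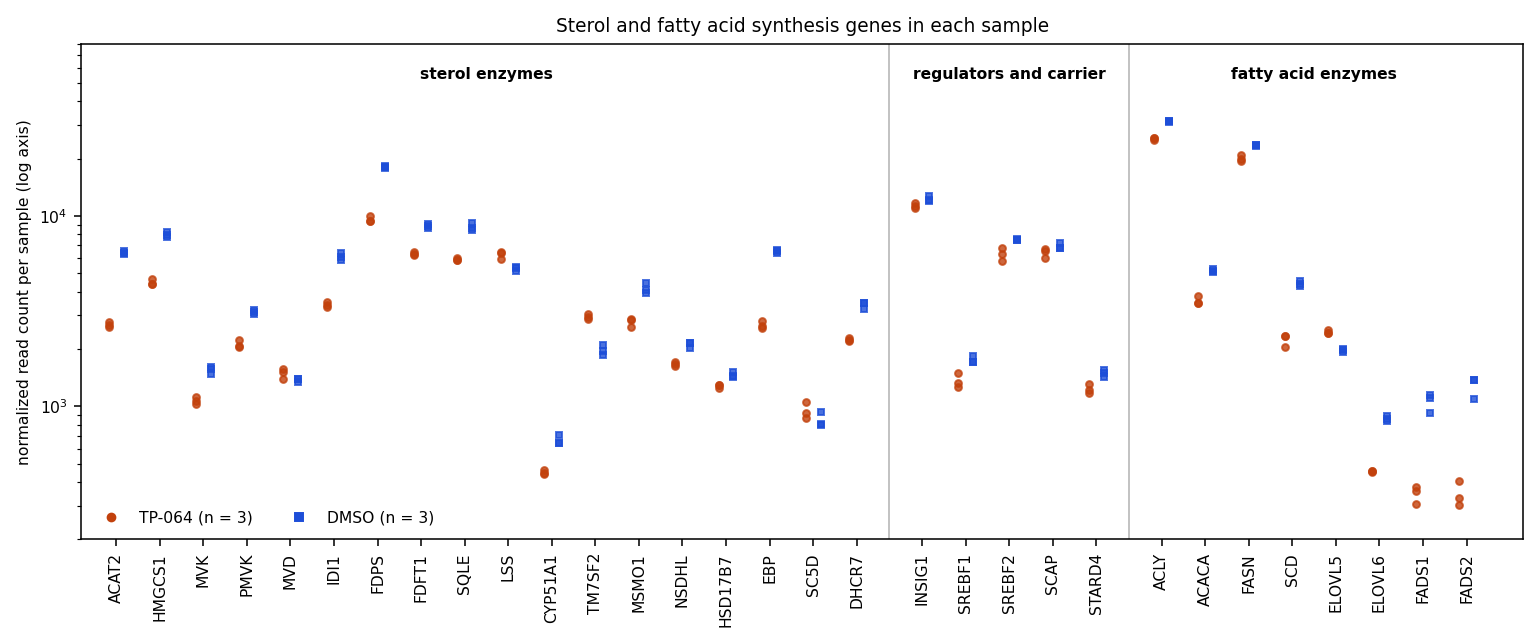
Normalized read count of each of the 31 genes (log axis) in each sample, with TP-064 samples as circles left of DMSO samples as squares. The 3 TP-064 samples lie below the 3 DMSO samples for 26 genes and above them for 4, and the groups overlap only for SC5D.

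The sterol branch was lower at its entry. ACAT2, which joins acetyl-CoA units into acetoacetyl-CoA, had 2600, 2759 and 2662 normalized read counts with TP-064 and 6347, 6532 and 6301 with DMSO. The treated samples lay at 41.8% of the DMSO mean, and the groups did not overlap. This was a log2 fold change of -1.26 (limma, SE 0.04 and adjusted p = 3.15e-13). ACAT2 spans chromosome 6, plus strand, bases 159760328 to 159779055 (hg38, GENCODE), and 9.23% of its exon bases overlap exons of TCP1 on the other strand. TCP1 was the more abundant of the pair, at a mean of 17323 normalized read counts over the 6 samples. HMGCS1, the synthase that makes HMG-CoA, had 4382, 4393 and 4678 normalized read counts with TP-064 and 7774, 8233 and 7900 with DMSO. On the log2 scale the change was -0.83 (limma, SE 0.04 and adjusted p = 5.48e-11), without overlap of the groups.

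The kinases that phosphorylate mevalonate were lower by a smaller amount. MVK, the first of them, averaged 1072 ± 44.8 normalized read counts with TP-064 and 1553 ± 68.8 with DMSO (SD, n = 3 each), and its log2 fold change was -0.53. Its exons overlap those of MMAB on the other strand over 4.72% of their length. PMVK, the second, averaged 2114 ± 95.1 with TP-064 and 3122 ± 61.1 with DMSO, and its log2 fold change was -0.56. The next enzyme went the other way: MVD, the decarboxylase that yields isopentenyl diphosphate, had 1510, 1578 and 1395 normalized read counts with TP-064 and 1337, 1393 and 1390 with DMSO. Its lowest treated sample exceeded the highest control sample by a few reads, and its log2 fold change of 0.12 (SE 0.05) lay close to the threshold (limma adjusted p = 0.0481). MVD lost this call in 9 of the 18 alternatives tried, among them DESeq2 (adjusted p = 0.0622) and the fits without TP-064 replicate 1 or 2 or without any 1 DMSO replicate, while its log2 fold change stayed between 0.08 and 0.24.

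The isoprenoid steps were among the more reduced of the branch. IDI1, the isomerase of isopentenyl diphosphate, had 3336, 3547 and 3392 normalized read counts with TP-064 and 6055, 6352 and 5868 with DMSO. The fitted log2 change was -0.83 (limma, SE 0.04 and adjusted p = 8.71e-11). FDPS, which condenses these units to farnesyl diphosphate, had 9419, 9958 and 9357 normalized read counts with TP-064 and 17846, 18195 and 18046 with DMSO. Every treated library thus lay far below every control library. The log2 fold change of FDPS was -0.91 (limma, SE 0.03 and adjusted p = 5.93e-12). Release 29 names 8 pseudogenes after FDPS, of which 1 is in the table, so reads of near-identical copies make its value uncertain. In RNA per kilobase of exon FDPS was the most abundant sterol enzyme, at 2576 normalized read counts per kilobase with TP-064 and 4849 with DMSO.

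Squalene synthesis and oxidation were lower, and the ring closure that follows was higher. FDFT1, the squalene synthase, averaged 6333 ± 115 normalized read counts with TP-064 and 8821 ± 217 with DMSO (SD, n = 3 each), and its log2 fold change was -0.48. SQLE, the epoxidase of squalene, averaged 5917 ± 54.1 with TP-064 and 8766 ± 364 with DMSO, and its log2 fold change was -0.57. LSS, which closes the rings to form lanosterol, had 6427, 6392 and 5949 normalized read counts with TP-064 and 5163, 5420 and 5314 with DMSO. All treated samples of LSS lay above all controls, at a log2 fold change of 0.24 (limma, SE 0.04 and adjusted p = 6.41e-05). LSS spans bases 46188141 to 46228824 of chromosome 21, minus strand (hg38). Its rise did not pass a test against a 1.2-fold change, in which 12 of the 18 sterol enzymes were still lower and TM7SF2 alone was higher (background 18.1% lower and 16.7% higher).

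The steps from lanosterol to cholesterol held the largest rise of the branch and, by less than its SE over ACAT2, the largest fall. EBP, the isomerase that shifts a double bond in the sterol ring, had 2638, 2794 and 2578 normalized read counts with TP-064 and 6349, 6532 and 6599 with DMSO. That is 41.1% of the DMSO mean, with a log2 fold change of -1.28 (limma, SE 0.04 and adjusted p = 4.75e-13). TM7SF2, a sterol reductase, had 2947, 3051 and 2878 normalized read counts with TP-064 and 1954, 1861 and 2090 with DMSO. All 3 treated samples lay above the controls, and TM7SF2 rose by 0.59 on the log2 scale (limma, SE 0.05 and adjusted p = 2.78e-08). EBP lies on the X chromosome from 48521158 to 48528716, and TM7SF2 on chromosome 11 from 65111845 to 65116384, both on the plus strand.

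The other genes of these steps were mostly lower. CYP51A1, which removes a methyl group from lanosterol, averaged 449 ± 12.3 normalized read counts with TP-064 and 665 ± 36.3 with DMSO (SD, n = 3 each), and its log2 fold change was -0.56. MSMO1, NSDHL and HSD17B7 act in turn to remove further methyl groups, and their log2 fold changes were -0.58, -0.34 and -0.19. HSD17B7 was not called when samples were scaled to library size alone, at -0.07 on the log2 scale. CYP51A1 and HSD17B7 each have 1 named pseudogene in the table, so their values are uncertain. DHCR7, the reductase of a last step to cholesterol, averaged 2243 ± 38.7 with TP-064 and 3401 ± 148 with DMSO, and its log2 fold change was -0.60. SC5D, a sterol desaturase, was the 1 gene of the 31 whose groups overlapped, with 924, 868 and 1058 normalized read counts with TP-064 and 806, 934 and 798 with DMSO. Its log2 fold change of 0.17 (SE 0.08) did not pass the test (limma adjusted p = 0.0676), and it passed as higher in 4 alternatives, among them TMM scaling (adjusted p = 0.0388) and the fits without replicate 2 of TP-064 (0.0161) or of DMSO (0.0154).

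In all, 14 of 18 sterol enzymes were lower (77.8%), 3 were higher (16.7%) and 1 was not called. Their median log2 fold change was -0.56, and their values ranged from -1.28 for EBP to 0.59 for TM7SF2. Of all tested genes 33.3% were lower and 31.9% higher, and of those with a mean of at least 500, 44.8% and 34.9%. Summed over the 18 enzymes, the branch took 0.136% to 0.137% of all normalized reads in the TP-064 samples and 0.188% to 0.194% in the DMSO samples.

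**Figure D2:**
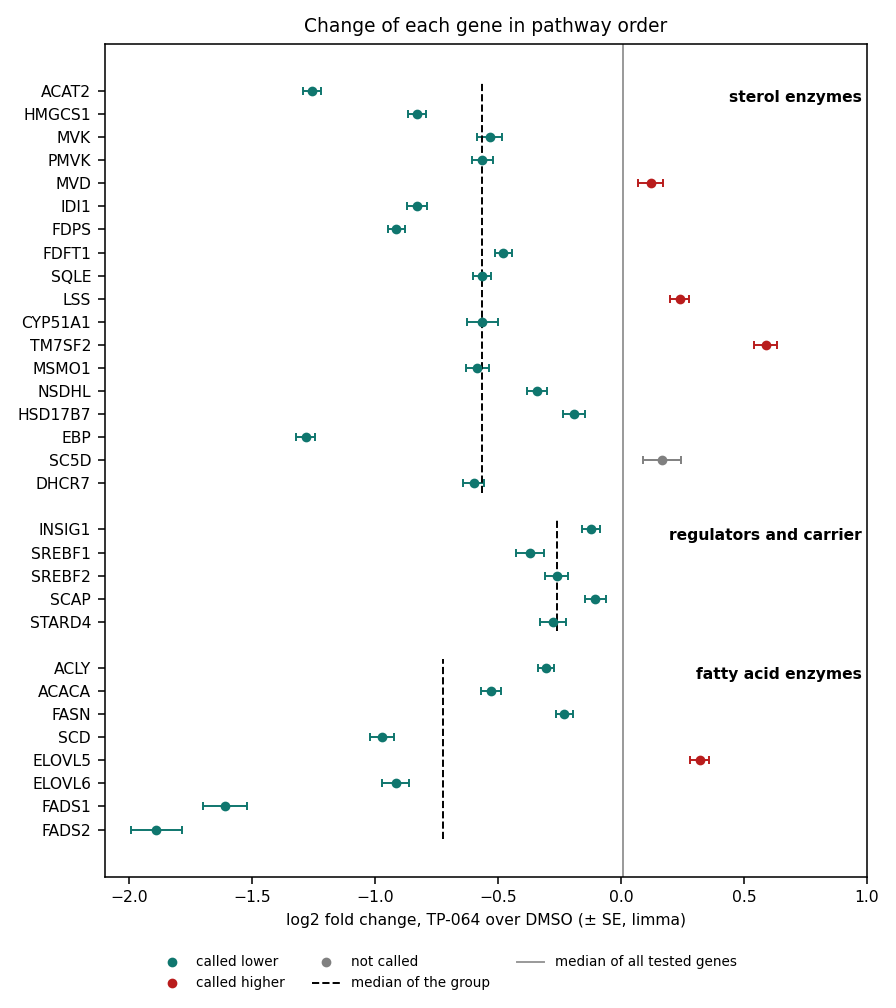
Log2 fold change of TP-064 over DMSO for each gene (points, with SE bars from limma), in pathway order within each group; dashed lines mark group medians. MVD, LSS, TM7SF2 and ELOVL5 lie right of the median of all tested genes as called rises, while FADS2 lies furthest left at -1.89.

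The last part of the fatty acid branch held the largest changes of all 31 genes. FADS2, the desaturase that starts the synthesis of polyunsaturated fatty acids, had 406, 302 and 328 normalized read counts with TP-064 and 1370, 1097 and 1371 with DMSO. FADS1, the desaturase that acts after it, had 357, 307 and 376 normalized read counts with TP-064 and 1147, 926 and 1107 with DMSO. Replicate 2 was the lowest library of its group for both genes, and no treated library reached the lowest control. The log2 fold change was -1.89 for FADS2 (limma, SE 0.10 and adjusted p = 4.35e-10) and -1.61 for FADS1 (limma, SE 0.09 and adjusted p = 4.45e-10). The genes overlap on chromosome 11 (hg38), FADS1 from 61799625 to 61829318 on the minus strand and FADS2 from 61792980 to 61867354 on the plus strand. Exons of each cover part of the other, 4.79% of FADS1 and 4.44% of FADS2. Libraries were stranded, but no source used here says how strand was treated in counting, and the part of this stretch in either value was not tested.

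SCD, which places the first double bond in saturated fatty acids, had 2350, 2054 and 2331 normalized read counts with TP-064 and 4386, 4534 and 4275 with DMSO. It stood at 51.0% of the DMSO mean, a log2 fold change of -0.97 (limma, SE 0.05 and adjusted p = 1.96e-10). Of the elongases, ELOVL6 lengthens palmitate and ELOVL5 lengthens polyunsaturated chains. ELOVL6 had 450, 458 and 459 normalized read counts with TP-064 and 853, 841 and 890 with DMSO. Its log2 fold change was -0.92 (limma, SE 0.06 and adjusted p = 1.51e-09). ELOVL5 had 2419, 2516 and 2431 normalized read counts with TP-064 and 1929, 1973 and 2000 with DMSO. It was the only gene of the 8 that was higher, at 0.32 (limma, SE 0.04 and adjusted p = 3.48e-06), and neither elongase showed overlap of the groups. In the test against a 1.2-fold change ELOVL5 did not pass (limma adjusted p = 0.196), nor did ACLY (0.250) or FASN, and 5 of the 8 enzymes were still lower.

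The enzymes at the head of the branch were lower by less. ACLY, which supplies acetyl-CoA to both branches by cleaving citrate, was the most abundant of the 31 genes per kilobase of exon in both groups. It had 25493, 25592 and 25128 normalized read counts with TP-064 and 31287, 31462 and 31334 with DMSO. On the log2 scale the change was -0.30 (limma, SE 0.03 and adjusted p = 7.33e-07). ACACA, the carboxylase that commits acetyl-CoA to fatty acids, averaged 3586 ± 185 with TP-064 and 5173 ± 89.0 with DMSO (SD, n = 3 each), and its log2 fold change was -0.53. FASN, the synthase of palmitate, had 20881, 19897 and 19406 normalized read counts with TP-064 and 23513, 23390 and 23677 with DMSO. Its treated samples lay at 85.3% of the DMSO mean, the smallest fall of the branch, with a log2 fold change of -0.23 (limma, SE 0.04 and adjusted p = 3.83e-05).

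Of the 8 fatty acid enzymes 7 were lower (87.5%) and 1 was higher (12.5%), with a median log2 fold change of -0.72. Of all tested genes 33.3% were lower and 31.9% higher, and of those with a mean of at least 500, 44.8% and 34.9%. The sterol enzymes had a median of -0.56. The medians of the branches differed by 0.16, sterol minus fatty acid, and this difference lay between 0.13 and 0.19 with each replicate left out in turn. No test was made of this difference, since the genes were chosen and members of a branch are not replicates. The order turned round when reads were summed, because ACLY and FASN are abundant and fell little. By that measure the fatty acid branch took 0.125% to 0.133% of all normalized reads with TP-064 and 0.149% to 0.151% with DMSO. The mean of its 3 treated shares fell less, relative to DMSO, than that of the sterol branch. Only 4 genes were called with a fall of at least 2-fold, ACAT2 and EBP in the sterol branch and FADS1 and FADS2 in the fatty acid branch, or 4 of 31 beside 6.56% of all tested genes. None was called with a rise of that size, beside 6.51% of all tested genes. Of the 8757 tested genes with a mean of at least 500, 516 had such a fall and 251 such a rise.

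**Figure D3:**
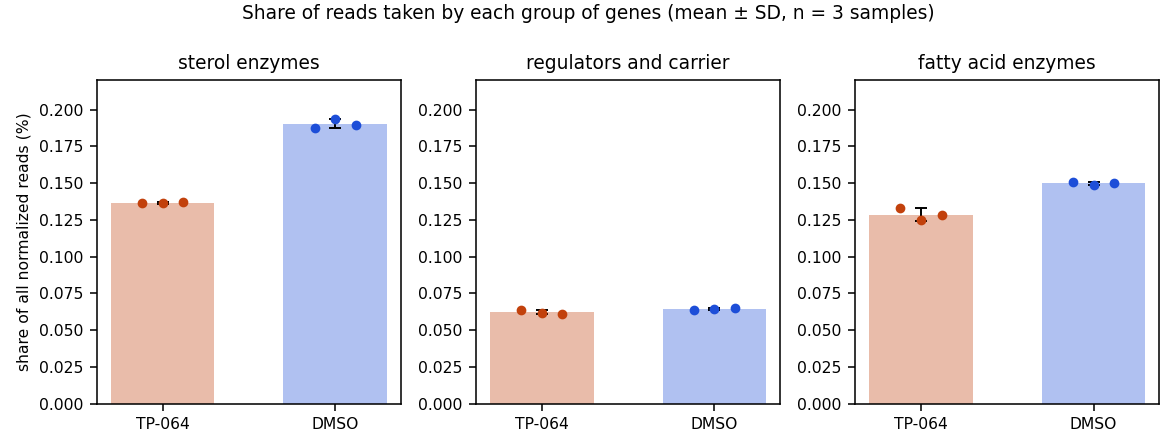
Share of all normalized reads (percent) taken by the sterol enzymes, the regulators and carrier, and the fatty acid enzymes, with TP-064 left of DMSO; bars are means, error bars SD and points the 3 samples. The sterol share is near 0.136% with TP-064 and at least 0.188% with DMSO, while the regulators' share lies between 0.0611% and 0.0648% in all samples. Totals of normalized reads were 41997457 to 43827820 with TP-064 and 46122600 to 46775877 with DMSO, so shares and fold changes differ in scale. As sums, the regulators had 25660 to 27111 with TP-064 and 29422 to 30214 with DMSO.

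The genes that control these branches moved by less than most of the enzymes. All 5 were called lower by limma, beside 33.3% of all tested genes and 44.8% of those with a mean of at least 500. The call of SCAP was not kept by edgeR or DESeq2. The 5 genes had a median of -0.26 on the log2 scale and a range of -0.37 to -0.10. None of them passed against a 1.2-fold change. SREBF1 had 1489, 1263 and 1332 normalized read counts with TP-064 and 1715, 1714 and 1834 with DMSO. The fitted log2 change was -0.37 (limma, SE 0.06 and adjusted p = 4.40e-05). SREBF2 had 6783, 6292 and 5796 normalized read counts with TP-064 and 7478, 7500 and 7578 with DMSO. Its log2 fold change was -0.26 (limma, SE 0.05 and adjusted p = 1.79e-04). The treated samples of both genes spread more widely than the controls and did not reach them. Per kilobase of exon SREBF2 exceeded SREBF1 in every sample, with a ratio of SREBF1 to SREBF2 of 0.189 to 0.216 with TP-064 and 0.215 to 0.228 with DMSO.

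INSIG1, which retains the SREBP and SCAP complex and is itself a well-known SREBP target, had 10949, 11674 and 11219 normalized read counts with TP-064 and 11968, 12663 and 12183 with DMSO. On the log2 scale the change was -0.12 (limma, SE 0.04 and adjusted p = 0.00844), and scaling to library size alone gave 0.0012 and no call. Without DMSO replicate 2 its value was -0.10 and was not called (adjusted p = 0.0550). SCAP, the escort of SREBP, had 6565, 6712 and 6002 normalized read counts with TP-064 and 6763, 6791 and 7160 with DMSO. Its log2 fold change of -0.10 (limma adjusted p = 0.0457) turned to 0.02 with scaling to library size alone, and it was -0.06 with no call (adjusted p = 0.225) without TP-064 replicate 3. It also lost the call without any 1 DMSO replicate, at -0.12, -0.12 and -0.08, and changed in 11 of 18 alternatives in all. Among these were TMM scaling (adjusted p = 0.105), edgeR with TMM (0.115) or median-of-ratios scaling (0.0557) and DESeq2 (0.0502). Library size scaling moved the median of all tested genes to 0.13, so these 2 genes are placed only relative to that shift. STARD4, a carrier of cholesterol between membranes, averaged 1231 ± 72.6 with TP-064 and 1489 ± 61.8 with DMSO (SD, n = 3 each), and its log2 fold change was -0.28.

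Ratios of related genes differed between the groups for some pairs. LBR catalyses the same sterol reduction as TM7SF2 and is also a protein of the inner nuclear membrane. LBR had 15218, 16190 and 15969 normalized read counts with TP-064 and 30460, 32013 and 31026 with DMSO. The fitted log2 change was -0.98 (limma, SE 0.04 and adjusted p = 4.37e-12). Per kilobase of exon the ratio of TM7SF2 to LBR was 0.299, 0.291 and 0.278 with TP-064 and 0.0989, 0.0897 and 0.104 with DMSO. LBR thus remained the more abundant of the pair in each sample. The ratio of ELOVL5 to ELOVL6 was 10.3, 10.5 and 10.1 with TP-064 and 4.33, 4.49 and 4.30 with DMSO. The ratio of FADS1 to FADS2 was 0.946, 1.10 and 1.23 with TP-064 and 0.902, 0.910 and 0.870 with DMSO. These pairs were chosen after their values were seen and are given without a test.

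**Figure D4:**
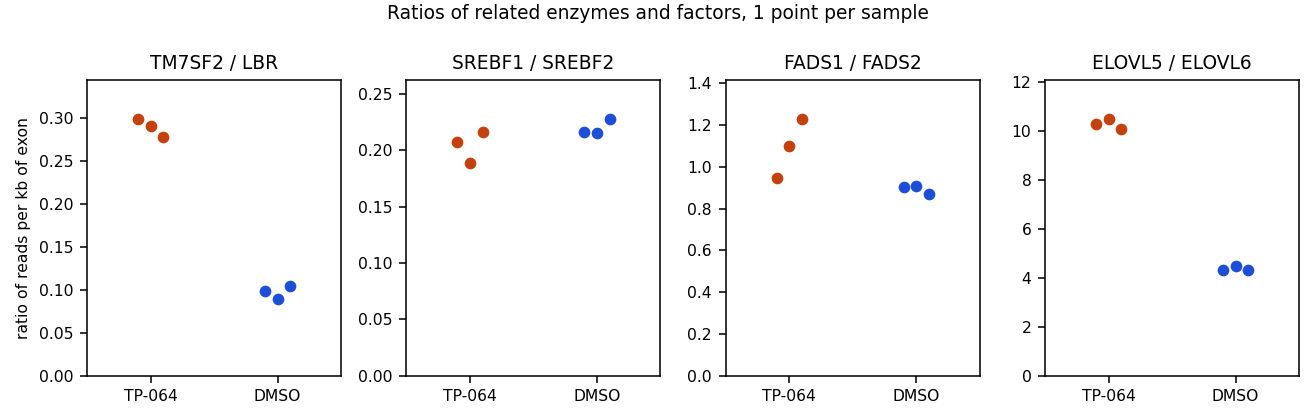
Ratio of normalized reads per kilobase of exon for 4 pairs of genes, 1 point per sample, TP-064 left of DMSO. The ratios of TM7SF2 to LBR and of ELOVL5 to ELOVL6 are higher in all 3 TP-064 samples than in the DMSO samples, while those of SREBF1 to SREBF2 overlap.

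Of 22 tested neighbouring genes of sterol synthesis, transport and sensing, 11 were lower and 6 higher (27.3%), with a median log2 fold change of -0.18. These shares are near the 44.8% lower and 34.9% higher among genes with a mean of at least 500. TMEM97, a sterol-binding membrane protein, was the most reduced gene of that list, with a log2 fold change of -1.32 and means of 2442 with TP-064 and 6085 with DMSO. GRAMD1B, which carries cholesterol from the plasma membrane to the endoplasmic reticulum, rose by 1.45 (limma, SE 0.03 and adjusted p = 5.01e-14), with means of 8291 with TP-064 and 3029 with DMSO. NPC2, which moves cholesterol out of lysosomes, rose by 1.06. Of 13 genes that draw on isoprenoids for ubiquinone, dolichol or protein prenylation, 8 were lower (61.5%) and 0 higher, with a median of -0.24. Over all tested genes 33.3% were lower and 31.9% higher. PDSS1, which builds the side chain of ubiquinone, had a log2 fold change of -1.24 and ICMT, which methylates prenylated proteins, one of -0.74. TMEM97, NPC2 and PDSS1 overlap exons of IFT20, ISCA2 and ABI1 on the opposite strand.

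Other fatty acid genes were mostly lower, with 17 of 25 tested genes lower (68.0%), 5 higher and a median log2 fold change of -0.35. Over all tested genes the shares were 33.3% lower and 31.9% higher. Among those with a mean of at least 500 they were 44.8% and 34.9%. FABP5, a fatty acid binding protein, had a log2 fold change of -1.47 and HACD3, a dehydratase of the elongation cycle, one of -0.80. FABP5 is known to have pseudogenes, which makes its value uncertain. ACSS2, which makes acetyl-CoA from acetate, had 2669, 2689 and 2580 normalized read counts with TP-064 and 1609, 1480 and 1583 with DMSO. It rose by 0.76 (limma, SE 0.04 and adjusted p = 6.53e-10), and FADS3, a relative of FADS1 and FADS2, rose by 0.37. AACS, a gene of the sterol list that activates acetoacetate in the cytosol and was singled out after its value was seen, rose by 0.74.

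In glycerolipid synthesis 10 of 19 tested genes were higher (52.6%) and 5 lower (26.3%), beside 31.9% and 33.3% of all tested genes, with a median log2 fold change of 0.11. LPIN1, a phosphatidate phosphatase known as an SREBP target, rose by 0.67, with means of 5541 with TP-064 and 3478 with DMSO, and AGPAT4, an acyltransferase, rose by 0.97. CHPT1, of phosphatidylcholine synthesis, and AGPAT5 were lower, with log2 fold changes of -1.06 and -0.57. In fatty acid oxidation 7 of 17 genes were higher (41.2%) and 6 lower (35.3%), shares near those of all tested genes, with a median of 0.03. Among tested genes with a mean of at least 500, 34.9% were higher and 44.8% lower. PPARA, a nuclear receptor of fatty acid breakdown, rose by 0.77. HADH and CPT1A, of mitochondrial oxidation, had log2 fold changes of -0.86 and -0.61. The division genes of smallest p, TOP2A and TYMS, were at -1.89 and -1.90, close to the value of FADS2. Values in the division list ranged from -1.98 to -1.36.

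**Figure D5:**
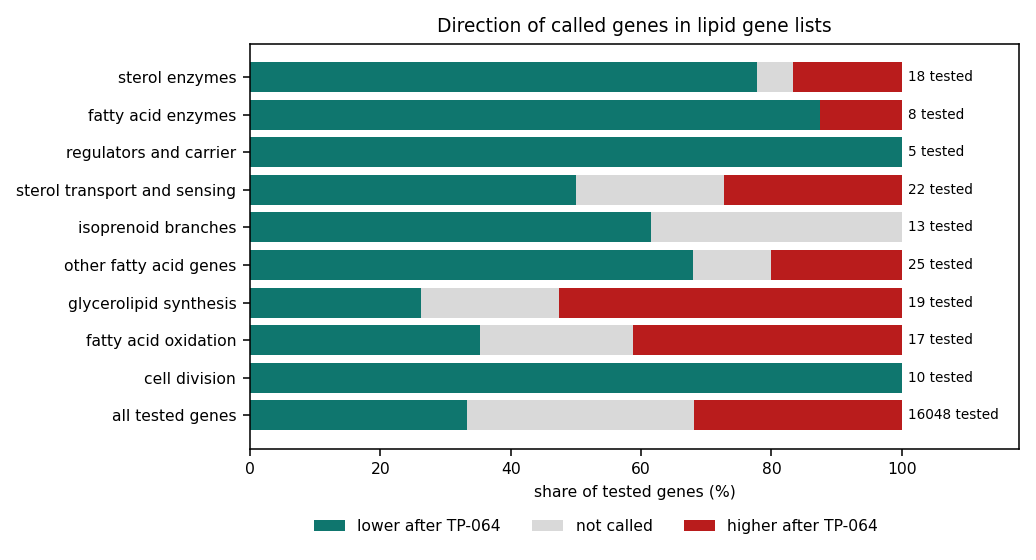
Share of tested genes (percent) called lower, not called and called higher with TP-064 in each list, with the number tested at the right. The sterol and fatty acid enzymes are lower in 77.8% and 87.5% of cases, glycerolipid synthesis in 26.3%, and all tested genes in 33.3%.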

How the data were processed

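Polyadenylated RNA of 6 Toledo samples was extracted on columns and sequenced from stranded mRNA libraries, per the labels' protocols. TopHat2 2.0.10, HTSeq 0.6.0, DESeq 1.18.0 and the hg38 build are named, per the submitters' processing notes. No source used here gives the annotation release, strand setting or row filter. The authors deposited 1 table of signal values, gene counts divided by a size factor per sample. In each column 100% of values were whole multiples of 1 step within a tolerance of 0.001, which gave whole reads. In both libraries of replicate 2 the size factor is close to 1, so there the recovery rests on the recomputed size factors.

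Members and lists were chosen with earlier results of these data known. The planned count test suits raw counts only. Because the table is normalized, limma 3.58.1 with trend (R 4.3.3) was fitted to log2 of the value plus a pseudocount of 1. This scale understates changes of low genes. Genes with a mean of at least 10 were tested (16048), with Benjamini-Hochberg adjustment over all of them, two-sided, 4 residual degrees of freedom and no block. Fold changes are TP-064 over DMSO. Named genes are the 31 members and, from each neighbouring list, up to 2 called genes of smallest p per direction, of which 1 is not reported here. Symbols and exon lengths come from GENCODE release 29, which matched 18214 of 18278 genes. Promoters are from RefSeq (GRCh38.p14). The fits were tested on simulated data. Replicate pairs differed by 3.18 to 7.95 chi-square units per degree of freedom, so no library repeated another. Alternatives were edgeR 4.0.16 and DESeq2 1.42.0 on recovered reads, other scalings, filters, pseudocounts and thresholds, a replicate block, and each replicate left out.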

Additional observations from a re-analysis of the deposited data

How the results depend on the processing

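Over 18 alternatives for each gene, 18 of the 31 genes kept their direction and their side of the threshold, and 13 did not under at least 1. The 2 reversals came with scaling to library size alone, INSIG1 at 0.0012 and SCAP at 0.018. Against a null of a 1.2-fold change, 5592 genes were called, 17 of the 31 lower and 1 higher, and 53 genes of the neighbouring lists in place of 85; fewer calls follow from the stricter null. Leaving out the 13 members that overlap an opposite-strand exon, all of them called lower, left 13 other genes lower and all 4 higher. Of the genes still lower, 7 are sterol enzymes and 4 fatty acid enzymes. The share of lower calls was thus smaller among the genes kept than among all 31. Count tests on recovered reads called 10562 genes with edgeR and TMM and 9724 with DESeq2, against 10449. Library size scaling gave 61.5% higher among called genes, against 48.9%, with 23 of the 31 genes lower and 5 higher. Same-numbered replicates did not deviate together (correlations of -0.0859, 0.0659 and -0.0793), so the numbers were not taken as pairs. A fit with a replicate block called 10491 genes, with 26 of the 31 lower and 4 higher, the same counts as without it. With each replicate left out in turn, 24 to 26 were lower and 3 to 4 higher, and 9733 to 10260 genes were called. The lowest read count of any of the 31 genes in a library was 305, so depth limits them little. With 3 samples a group the spread itself is poorly known.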
